A study of Mus musculus with 2 samples.

Results

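Sarcomere and striated muscle genes were followed in mTEC, medullary thymic epithelial cells. These cells line the inner thymus and display proteins of peripheral organs to developing T cells. The set holds 40 genes picked by name for the contractile apparatus of skeletal muscle and heart. All 40 were found among the 23123 gene symbols of the series. They were divided by known fibre type into fast skeletal (11 genes), developmental skeletal (2), slow skeletal (3), slow skeletal and cardiac (5), cardiac (8) and genes shared by fibre types (11).

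The study has 2 groups of mTEC from untreated wild-type B6 mice, sorted by flow cytometry from pooled thymi. The group with high surface MHC class II is called mTEChi and the group with low surface MHC class II mTEClo, and each gave 1 library. The age of the mice and the number pooled are not given in the sources used here. Poly(A)-selected RNA was sequenced as read pairs of 100 bases for mTEChi and as single reads of 50 bases for mTEClo, so read format and group cannot be told apart. The deposited values are RPKM, reads scaled to transcript length and library size. The steps between low values imply about 115000000 reads for mTEChi and 21000000 for mTEClo. With 1 library per group no test is possible, and every difference below describes these libraries without a replicate check.

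All 7 thymic epithelial markers and 6 of 7 mature mTEC markers were above 0 in both libraries, and Cd86 was listed at 10.6 RPKM in mTEChi and at 0 in mTEClo. Aire, the regulator of tissue-restricted genes in mTEC, had 122 RPKM in mTEChi and 15.9 RPKM in mTEClo, and the epithelial gene Epcam had 198 and 127 RPKM. Fibroblast and endothelial markers lay on the side of mTEClo, whereas of 10 smooth muscle and pericyte markers 2 were higher in mTEChi and 2 lower. All 8 fibroblast markers and all 7 endothelial markers were at least 2-fold lower in mTEChi, with sums of 36.0 and 16.9 RPKM in mTEChi against 713 and 146 RPKM in mTEClo.

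A sarcomere is built from thick filaments of myosin and thin filaments of actin, which the Z-disc anchors and the giant proteins titin and nebulin span. Calcium released through ryanodine receptors binds troponin C, which shifts troponin I and troponin T on the thin filament and lets myosin pull. Fast fibres, slow fibres and heart use different genes for the same component, so each troponin, myosin or actin gene carries a label of origin. In the thymus, muscle genes are known from thymic myoid cells and from mTEC that take on features of muscle cells under the regulator Myog. Antibodies to titin, to the ryanodine receptor and to the acetylcholine receptor occur in human myasthenia gravis, a disease linked to the thymus.

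Each of the 40 genes was listed above 0 in mTEChi, and 33 were above 0 in mTEClo. Of all 23123 genes, 2275 were listed at 0 in mTEChi and 7134 in mTEClo. Levels were low. In both libraries 29 genes stayed below 5 RPKM, whereas 5 reached 10 RPKM or more in mTEChi and 4 did so in mTEClo. Summed over the set, the level was 237 RPKM in mTEChi and 163 RPKM in mTEClo. The median gene had 2.15 RPKM in mTEChi and 0.817 RPKM in mTEClo, beside 2.33 and 1.67 RPKM over all genes. In bulk RNA, fewer cells of a type and less RNA per cell cannot be told apart.

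**Figure D1:**
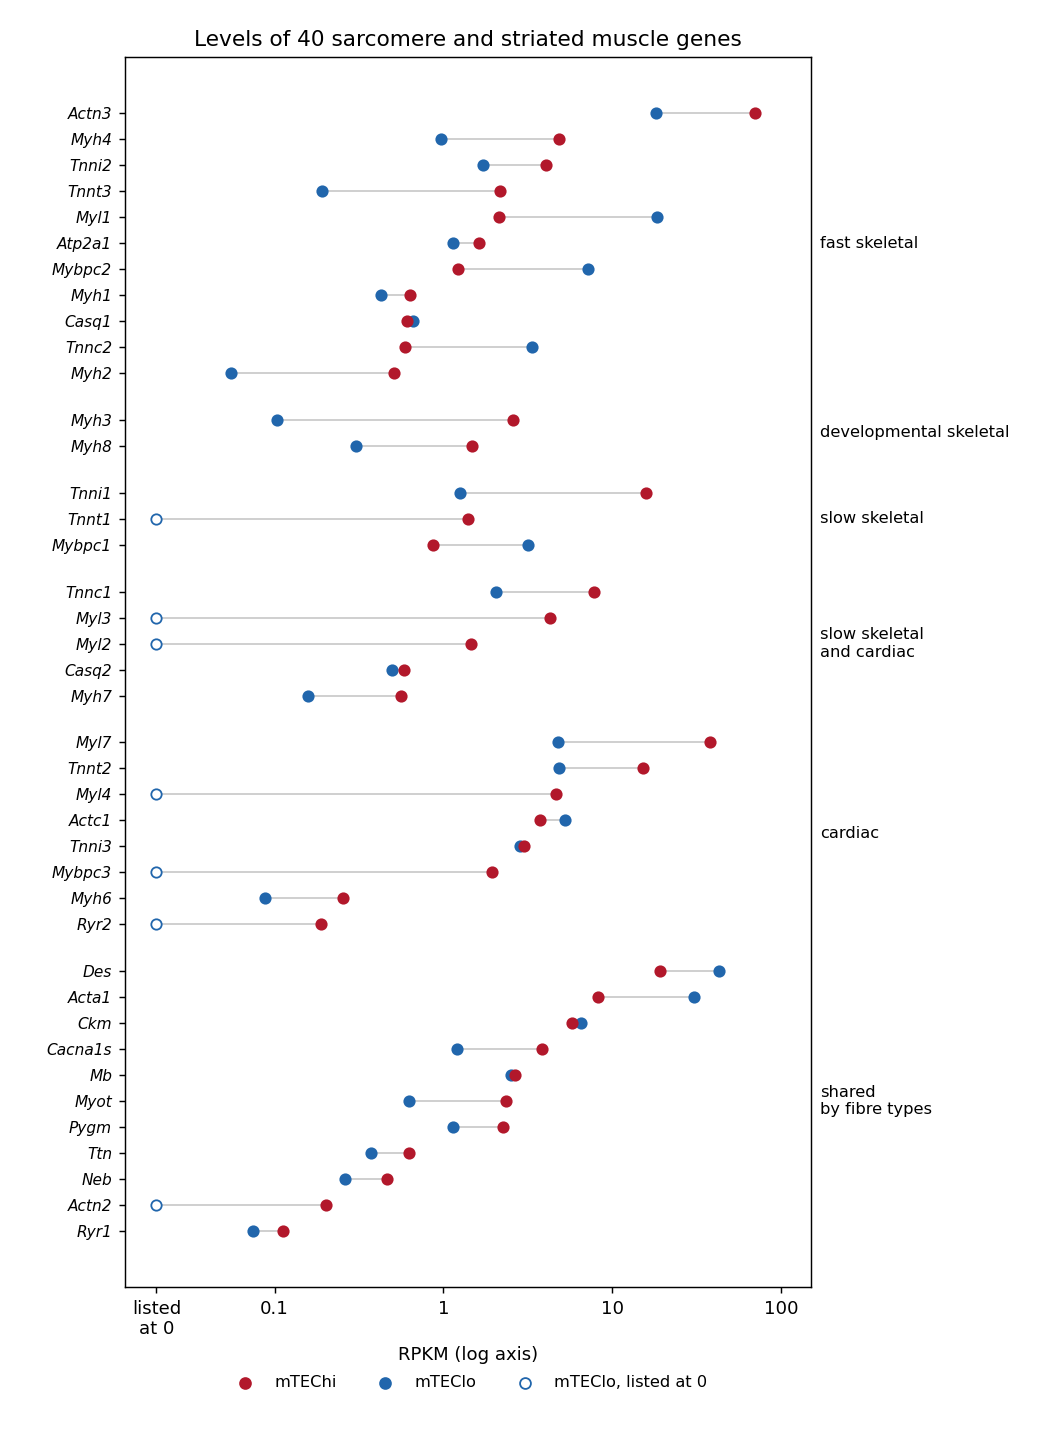
RPKM (log axis) of each of the 40 genes in mTEChi (red) and mTEClo (blue), grouped by fibre type, with open circles for the 7 genes listed at 0 in mTEClo. Actn3 leads in mTEChi with 70.0 RPKM and Des in mTEClo with 42.5 RPKM. Genes on either side are found within the fast, the slow skeletal and the shared groups, and in the cardiac group Actc1 is higher in mTEClo.

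The genes did not move together. Changes are given as log2((mTEChi + 1)/(scaled mTEClo + 1)) in RPKM, with mTEClo multiplied by 1.21 to bring the median ratio of well-expressed genes to 0, and 2-fold (1 on the log2 scale) as threshold. A mean of 0.5 RPKM or more was required, which 32 of the 40 genes met. Of these 32, 13 (40.6%) were at least 2-fold higher in mTEChi, 6 (18.8%) were at least 2-fold lower and 13 lay between. Among all 15590 genes that met the filter, 16.1% were higher and 9.35% lower. The median change of the 32 genes was 0.78, and over all 40 genes it was 0.33, against 0.03 and 0.04 over all genes with and without the filter.

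Part of the higher calls followed from the filter. The 5 genes Tnnt1, Myl2, Myl3, Myl4 and Mybpc3 were listed at 0 in mTEClo, and any such gene that passes the filter is 2-fold higher by construction. Among the 27 members that passed and were above 0 in mTEClo, 8 (29.6%) were higher and 6 (22.2%) lower, beside 11.4% and 9.87% of all genes of that kind. With neither filter nor pseudocount, 14 of 33 members (42.4%) were higher and 6 (18.2%) lower by 2-fold or more, beside 17.3% and 15.8% of all genes above 0 in both libraries. On that scale the share of lower members lay close to that of all genes.

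A counting interval (95%, exact) was set around each ratio without pseudocount from the reads recovered behind the values, and it covers counting error only. Of 33 intervals, 12 lay wholly above a 2-fold higher ratio, 6 wholly below a 2-fold lower ratio, and 7 included equal levels. No such share was obtained over all genes, so these counts cannot be called high or low for the 2 libraries. The lower 6 were Myl1, Mybpc2, Tnnc2, Mybpc1, Acta1 and Des. They come from the fast, slow skeletal and shared groups. Only 5 cardiac genes had an interval, and 15.8% of all genes were 2-fold lower without pseudocount. The absence of cardiac genes from the lower 6 therefore does not set that class apart.

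**Figure D2:**
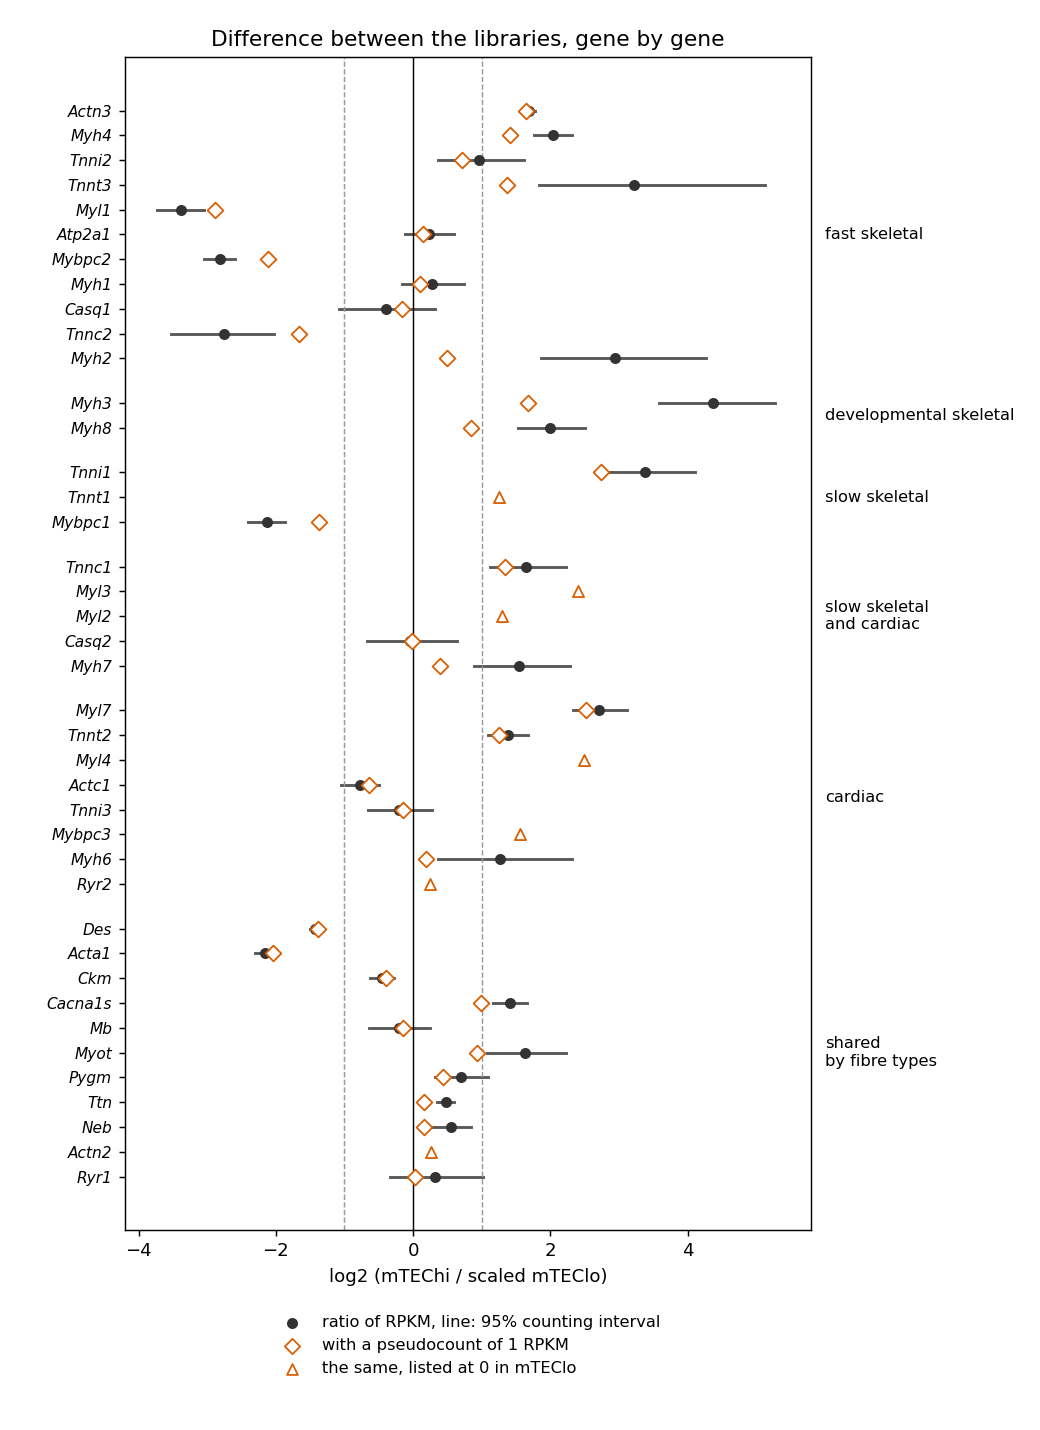
Log2 ratio of mTEChi over scaled mTEClo for each gene: filled circles give the ratio of RPKM with its 95% counting interval as a line, and orange symbols the value with a pseudocount of 1 RPKM (triangles for genes listed at 0 in mTEClo). Dashed lines mark 2-fold. Myl1 lies farthest to the left at -3.38 and Myh3 farthest to the right at 4.36 among ratios without pseudocount, and the pseudocount draws low genes such as Myh3 and Myh2 toward 0.

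The promoters of 4 members are printed because these genes stand at the ends of the set: Myl1 and Acta1 had 2 of the 3 lowest changes, and Tnni1 and Myl7 had the 2 highest. Each sequence is the 250 bases before the gene's start, 5′ to 3′ on the gene's strand, from RefSeq on GRCm38.p6. Capitals mark matches on either strand to the E-box CANNTG, to CATTCC (the MCAT element), to the MEF2 motif, to the CArG box bound by serum response factor, and to TATAAA. The Myl1 window is chr1:66945057-66945306 on the minus strand and that of Acta1 chr8:123894776-123895025 on the minus strand. The Tnni1 window is chr1:135799171-135799420 on the plus strand and that of Myl7 chr11:5898783-5899032 on the minus strand.
Myl1: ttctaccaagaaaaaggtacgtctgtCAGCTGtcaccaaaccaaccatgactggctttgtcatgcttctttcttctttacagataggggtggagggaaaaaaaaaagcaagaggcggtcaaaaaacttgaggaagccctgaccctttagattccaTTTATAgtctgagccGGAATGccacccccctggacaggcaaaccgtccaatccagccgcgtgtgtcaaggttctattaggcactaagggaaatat
Acta1: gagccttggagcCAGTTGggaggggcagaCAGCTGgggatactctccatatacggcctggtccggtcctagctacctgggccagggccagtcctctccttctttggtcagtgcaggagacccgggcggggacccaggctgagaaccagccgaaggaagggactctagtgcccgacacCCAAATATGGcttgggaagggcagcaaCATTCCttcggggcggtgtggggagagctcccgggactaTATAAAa
Tnni1: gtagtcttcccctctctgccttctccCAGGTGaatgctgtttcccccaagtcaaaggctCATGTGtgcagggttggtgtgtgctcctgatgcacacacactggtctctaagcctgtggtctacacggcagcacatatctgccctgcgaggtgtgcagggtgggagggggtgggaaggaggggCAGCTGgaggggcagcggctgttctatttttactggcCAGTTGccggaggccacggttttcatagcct
Myl7: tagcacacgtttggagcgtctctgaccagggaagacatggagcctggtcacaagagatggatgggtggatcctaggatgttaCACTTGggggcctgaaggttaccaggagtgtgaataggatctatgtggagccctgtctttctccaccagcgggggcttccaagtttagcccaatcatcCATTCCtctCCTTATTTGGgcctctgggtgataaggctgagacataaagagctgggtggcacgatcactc
Myl1 and Acta1, both lower in mTEChi, each hold an E-box of the form CAGCTG along with matches to CATTCC and to TATAAA, and Acta1 has a CArG box as well. Tnni1 and Myl7, both higher in mTEChi, hold 4 E-boxes (1 of them CAGCTG) in the case of Tnni1, and 1 E-box, 1 match to CATTCC and 1 CArG box in the case of Myl7. In these 4 windows E-boxes, CATTCC and the CArG box occurred on both sides of the comparison. TATAAA occurred only in Myl1 and Acta1, and none of the 4 held a MEF2 match.

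Promoter windows were at hand for 35 of the 40 genes, taking the one listed first where a gene had several. The form CAGCTG, which is a subset of CANNTG, occurred in 13 of them (37.1%), beside 13.0% of all 32851 windows of that length. Each member enters with a single window, whereas every window of a gene counts among all windows, so the shares are of unlike units. Their differences were not tested. Any E-box occurred in 30 members (85.7%) and in 66.2% of all windows. A MEF2 match was found in 6 (17.1%, beside 2.92%), a CArG box in 5 (14.3%, beside 1.47%), CATTCC in 12 (34.3%, beside 12.6%) and TATAAA in 7 of 35 (beside 12.4%). The CArG box was matched in Acta1, Actc1, Myh4, Myl3 and Myl7. A match is a run of letters and not a measured binding site.

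Fast skeletal genes split into 3 higher, 3 lower and 4 within 2-fold among 10 that met the filter. Of all genes that met it, 16.1% were higher and 9.35% lower. Actn3, the alpha-actinin of fast Z-discs, was the most abundant member in mTEChi, with 70.0 RPKM in mTEChi against 18.0 RPKM in mTEClo, a log2 change of 1.64. It made up most of the class in mTEChi. The class summed to 88.3 RPKM in mTEChi and 52.0 RPKM in mTEClo, but without Actn3 to 18.3 RPKM in mTEChi and 34.0 RPKM in mTEClo. These sums use unscaled RPKM, and Myl1 held 18.4 RPKM of the mTEClo sum. Mybpc2 and Tnnc2 were also at least 2-fold lower in mTEChi, and the single genes lay on both sides.

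Myl1, the essential light chain of fast myosin, had 2.13 RPKM in mTEChi and 18.4 RPKM in mTEClo, a log2 change of -2.89. Its ratio without pseudocount was -3.38 with a counting interval from -3.73 to -3.05. Both transcript lines of Myl1 gave the same side, the other with 1.61 RPKM in mTEChi and 15.6 RPKM in mTEClo. Which of these lines starts at the promoter window printed above was not examined. Mybpc2, the fast form of myosin-binding protein C on the thick filament, had 1.22 RPKM in mTEChi and 7.12 RPKM in mTEClo, a log2 change of -2.11. Tnnc2, the calcium sensor of fast fibres, had 0.591 RPKM in mTEChi and 3.32 RPKM in mTEClo (-1.66). For Tnnc2, 74.0% of the exon bases are also annotated as exon of Ube2c on the opposite strand. Ube2c, a ubiquitin-conjugating enzyme of dividing cells, lay on the other side, with 9.39 RPKM in mTEChi and 2.62 RPKM in mTEClo. The share of overlap pools the exons of all annotated transcripts of both genes, used or not. The libraries do not keep strand, so reads within the shared bases cannot be assigned by strand. The part of Ube2c reads in the Tnnc2 values was not tested. Atp2a1 shares 21.9% of its exon bases with Rabep2 on the opposite strand.

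The other fast genes were higher in mTEChi or near equal. Myh4, the heavy chain of the fastest fibres (type IIb), had 4.80 RPKM in mTEChi and 0.971 RPKM in mTEClo, a log2 change of 1.42. Tnnt3, fast troponin T, had 2.17 RPKM in mTEChi and 0.192 RPKM in mTEClo (1.36). That mTEClo value rests on 4 reads, and the ratio without pseudocount had an interval from 1.83 to 5.12. Tnni2, fast troponin I, had 4.05 RPKM in mTEChi and 1.72 RPKM in mTEClo (0.71), short of 2-fold.
Atp2a1, the calcium pump of the fast sarcoplasmic reticulum, had 1.62 RPKM in mTEChi and 1.14 RPKM in mTEClo (0.14). Casq1, the calcium store protein calsequestrin of skeletal muscle, had 0.609 and 0.664 RPKM (-0.16), and Myh1, the type IIx heavy chain, 0.631 and 0.429 RPKM (0.10). The intervals of Atp2a1, Casq1 and Myh1 included equal levels. Myh2, the type IIa heavy chain, did not meet the filter, with 0.510 RPKM in mTEChi and 0.0551 RPKM in mTEClo, where 7 reads were recovered.

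Of the heavy chains of developing muscle, Myh3 was past 2-fold higher in mTEChi and Myh8 was within 2-fold. Myh3, embryonic myosin, had 2.58 RPKM in mTEChi and 0.104 RPKM in mTEClo, a log2 change of 1.67. Without pseudocount its ratio was 4.36 (interval 3.58 to 5.28), the largest of the set, from 13 reads in mTEClo where 270 would be expected at the mTEChi level. Myh8, perinatal myosin, had 1.46 RPKM in mTEChi and 0.304 RPKM in mTEClo (0.85 with and 2.00 without pseudocount). Myh3, Myh2, Myh1, Myh4 and Myh8 are consecutive coding genes on chromosome 11, and their ratios without pseudocount ran from 0.28 for Myh1 to 4.36 for Myh3. Close neighbours in this cluster therefore differed in ratio, and since these genes have similar sequences, the split of reads between them is uncertain.

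Slow skeletal genes held the largest change toward mTEChi with pseudocount. Tnni1, troponin I of slow and of embryonic muscle, had 15.7 RPKM in mTEChi and 1.24 RPKM in mTEClo, a log2 change of 2.74 and a ratio without pseudocount of 3.38 (interval 2.75 to 4.11). Tnnt1, slow troponin T, was listed at 1.39 RPKM in mTEChi and at 0 in mTEClo. Mybpc1, the slow form of myosin-binding protein C, took the other side with 0.870 RPKM in mTEChi and 3.16 RPKM in mTEClo (-1.37). The 3 slow skeletal genes thus lay on both sides, with Tnnt1 placed as higher by its 0 in mTEClo.

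Genes that slow muscle and ventricle share were higher in mTEChi or near equal. Tnnc1, the calcium sensor of both tissues, had 7.75 RPKM in mTEChi and 2.04 RPKM in mTEClo, a log2 change of 1.34. Myl3 and Myl2, the ventricular and slow light chains, were listed at 4.27 and 1.46 RPKM in mTEChi and at 0 in mTEClo. Casq2, the cardiac calsequestrin, had 0.582 RPKM in mTEChi and 0.495 RPKM in mTEClo (-0.01), with an interval that included equal levels. Myh7, the slow and ventricular heavy chain, did not meet the filter, with 0.560 RPKM in mTEChi and 0.158 RPKM in mTEClo.

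Among 6 cardiac genes that met the filter, 4 were at least 2-fold higher in mTEChi, 2 of them listed at 0 in mTEClo, and 0 were lower. Among all genes that met the filter 16.1% were higher and 9.35% lower, so 0 lower of 6 does not set the cardiac genes apart. Of the 4 cardiac genes that were also above 0 in mTEClo 2 were higher, beside 11.4% of all such genes. Myl7, the regulatory light chain of atrial myosin, had 37.9 RPKM in mTEChi and 4.79 RPKM in mTEClo, a log2 change of 2.52 and a ratio without pseudocount of 2.71 (interval 2.33 to 3.11). Tnnt2, troponin T of heart and embryonic muscle, had 15.2 RPKM in mTEChi and 4.83 RPKM in mTEClo (1.24). Its 9 transcript lines ran from 14.1 to 15.2 RPKM in mTEChi and from 4.39 to 4.83 RPKM in mTEClo, so the choice of line hardly mattered. Myl4, the atrial and embryonic essential light chain, was listed at 4.64 RPKM in mTEChi and at 0 in mTEClo. Mybpc3, the cardiac form of myosin-binding protein C, was listed at 1.93 RPKM in mTEChi and at 0 in mTEClo.

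The remaining cardiac genes showed smaller differences or very low levels. Tnni3, cardiac troponin I, had 2.99 RPKM in mTEChi and 2.85 RPKM in mTEClo (-0.15). Actc1, the cardiac alpha-actin that embryonic skeletal muscle also uses, had 3.71 RPKM in mTEChi and 5.27 RPKM in mTEClo (-0.65, interval without pseudocount -1.06 to -0.50). Myh6, alpha-myosin and the target of autoimmune myocarditis in mice, had 0.255 RPKM in mTEChi and 0.0875 RPKM in mTEClo. Ryr2, the calcium release channel of heart, was listed at 0.188 RPKM in mTEChi and at 0 in mTEClo. Summed, the cardiac class had 66.8 RPKM in mTEChi and 17.8 RPKM in mTEClo, and without Myl7 28.9 and 13.0 RPKM.

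Of the 11 genes shared by fibre types 7 met the filter, and 2 of them, Des and Acta1, were at least 2-fold lower in mTEChi while 0 were higher. Without filter or pseudocount, 2 of the 10 above 0 in both libraries were higher by 2-fold or more (Cacna1s and Myot) and 2 lower. Among all genes above 0 in both libraries these shares were 17.3% and 15.8%. Des, desmin, the intermediate filament around the Z-disc, had 19.1 RPKM in mTEChi and 42.5 RPKM in mTEClo, a log2 change of -1.38. It is the most abundant member in mTEClo. Acta1, skeletal alpha-actin of the thin filament, had 8.22 RPKM in mTEChi and 30.4 RPKM in mTEClo (-2.03, interval without pseudocount -2.31 to -2.02). Smooth muscle cells and pericytes also make desmin, and Acta2, the smooth muscle alpha-actin that is nearly identical to Acta1, had 32.0 RPKM in mTEChi and 198 RPKM in mTEClo. Of the 10 smooth muscle and pericyte markers, 2 were lower in mTEChi (Acta2 and Tagln) and 2 higher (Rgs5, and Cnn1, which was listed at 0 in mTEClo), with a sum of 224 RPKM in mTEChi and 519 RPKM in mTEClo. Their part in the values of Des and Acta1 was not tested.

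Ckm, the muscle creatine kinase, was nearly even, with 5.78 RPKM in mTEChi and 6.53 RPKM in mTEClo (-0.39). So was Mb, the oxygen store myoglobin, with 2.64 RPKM in mTEChi and 2.52 RPKM in mTEClo (-0.15). Cacna1s, the voltage sensor of the T-tubule, had 3.85 RPKM in mTEChi and 1.20 RPKM in mTEClo (0.98), and Myot, the Z-disc protein myotilin, 2.35 and 0.629 RPKM (0.93). Both stood just inside the threshold and passed 2-fold without scaling (Cacna1s 1.14, Myot 1.04) and without pseudocount (Cacna1s 1.41, Myot 1.63). Pygm, the muscle glycogen phosphorylase that is lost in McArdle disease, had 2.24 RPKM in mTEChi and 1.14 RPKM in mTEClo (0.44).

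The giant genes lay under the filter, and of these Ttn and Neb had more than 100 reads in mTEClo. Ttn, titin, had 0.626 RPKM in mTEChi and 0.372 RPKM in mTEClo, where 638 reads were recovered. Without pseudocount its log2 ratio was 0.48 (interval 0.35 to 0.60), higher in mTEChi but short of 2-fold. Neb, nebulin, the ruler of the thin filament, had 0.465 RPKM in mTEChi and 0.262 RPKM in mTEClo, with a ratio of 0.56 (0.27 to 0.85). Ryr1, the skeletal calcium release channel, had 0.112 RPKM in mTEChi and 0.0748 RPKM in mTEClo, where 24 reads were recovered, and its interval included equal levels. Actn2, the alpha-actinin of heart and all skeletal fibres, was listed at 0.201 RPKM in mTEChi and at 0 in mTEClo.

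Set side by side by component, the make-up of the sarcomere transcripts differed between the libraries for some components and kept the same leading gene for others. Tnni1 gave 69.1% of troponin I RPKM in mTEChi and 21.4% in mTEClo, where cardiac Tnni3 led with 49.0%. The mTEClo shares rest on few reads: 20 for Tnni1, 26 for Tnni2 and 54 for Tnni3. In troponin C, slow and cardiac Tnnc1 gave 92.9% in mTEChi and 38.1% in mTEClo, a share that carries the overlap of Tnnc2 with Ube2c. In troponin T, cardiac Tnnt2 led in both, with 81.0% in mTEChi and 96.2% in mTEClo.
Among light chains, atrial Myl7 gave 75.2% in mTEChi and 20.6% in mTEClo, and fast Myl1 4.23% in mTEChi and 79.4% in mTEClo. The mTEClo shares take the values of 0 for Myl2, Myl3 and Myl4 as they are listed. Among heavy chains Myh4 had the largest share in both libraries, 44.4% in mTEChi and 46.0% in mTEClo. Embryonic Myh3 gave 23.9% in mTEChi and 4.93% in mTEClo. For myosin-binding protein C the leader was cardiac Mybpc3 in mTEChi (48.0%) and fast Mybpc2 in mTEClo (69.3%), where Mybpc3 was listed at 0. Acta1 led alpha-actin in both libraries (68.9% in mTEChi, 85.2% in mTEClo), as did Actn3 alpha-actinin (99.7% and 100%) and Casq1 calsequestrin (51.1% and 57.3%). Ryr1 gave 37.4% of ryanodine receptor RPKM in mTEChi and 100% in mTEClo, where Ryr2 was listed at 0.

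**Figure D3:**
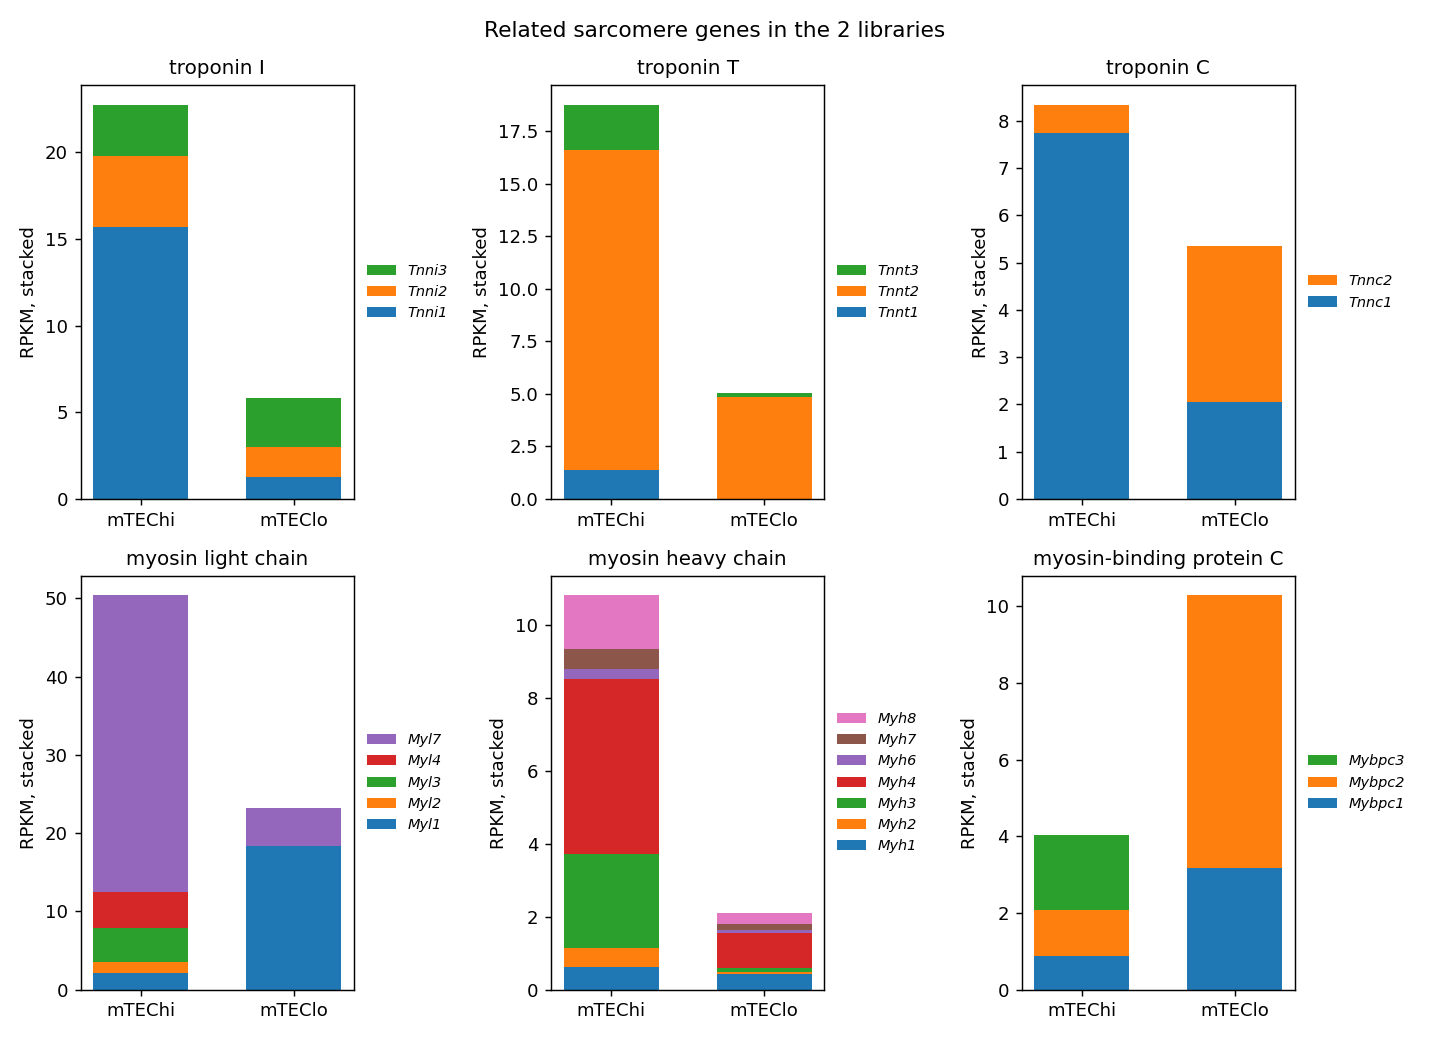
Stacked RPKM of related sarcomere genes in mTEChi (left bar) and mTEClo (right bar), with a separate linear scale for each component. Myl7 fills most of the light chain bar in mTEChi and Myl1 most of it in mTEClo, and Tnni1 dominates troponin I in mTEChi.

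Genes for troponin I and troponin T lie in pairs on the chromosomes, and neighbours were compared. Tnni1 and Tnnt2 on chromosome 1, separated by 1 coding gene, were both higher in mTEChi (2.74 and 1.24). Tnni2 and Tnnt3 on chromosome 7, also with 1 coding gene between them, had changes of 0.71 and 1.36. Tnnt1 and Tnni3, direct neighbours on chromosome 7, differed in that Tnnt1 was listed at 0 in mTEClo while Tnni3 was nearly even (-0.15). Myh6 and Myh7, direct neighbours on chromosome 14, had ratios without pseudocount of 1.27 and 1.55.

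A value of 0 in mTEClo was not limited to genes with few reads. At the mTEChi level, the 7 members listed at 0 would have between 10.5 (Actn2) and 139 (Mybpc3) reads in mTEClo. Myl4 and Myl3 would have 70.7 and 69.3 reads, Ryr2 54.8, Tnnt1 24.7 and Myl2 16.7. Rps21, a ribosomal protein gene used by all cells, was listed at 144 RPKM in mTEChi and at 0 in mTEClo, so a 0 can be a failed estimate. The values with pseudocount that place these genes past 2-fold depend on the pseudocount and are not estimates of a fold.

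**Figure D4:**
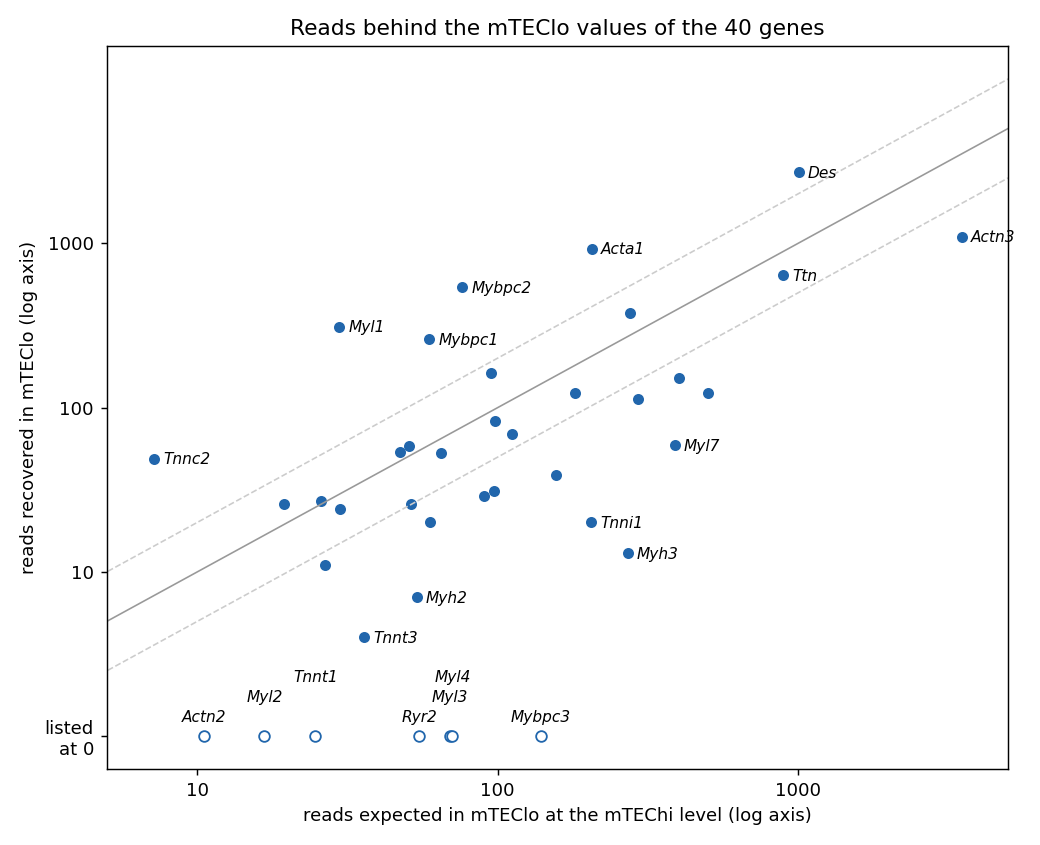
Reads recovered in mTEClo against the reads expected there at the mTEChi level (both log axes), with the solid line for equality, dashed lines for 2-fold and open circles for the 7 genes listed at 0. Myl1 (310 reads, 29.7 expected) and Mybpc2 (539, 76.3 expected) lie far above the line and Myh3 (13, 270 expected) far below it.

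Other lists of muscle genes were set beside all genes that met the filter, of which 16.1% were higher and 9.35% lower. Among all genes also above 0 in mTEClo these shares were 11.4% and 9.87%. Differences of the lists from these shares were not tested. Of 23 other sarcomere and Z-disc genes that met the filter (30 listed), 6 passed 2-fold on the higher side and 2 on the lower (median 0.13). The lower ones were the tropomyosins Tpm2, with 37.0 RPKM in mTEChi and 112 RPKM in mTEClo (-1.84), and Tpm1, with 58.7 and 117 RPKM (-1.25), which smooth muscle and other cells also use. Mylk2, a kinase of skeletal myosin light chains, was higher (1.15), and the other 5 on the higher side had a 0 in mTEClo. Among the 18 genes above 0 there 1 was thus higher. Cryab, a small heat shock protein of the Z-disc, had 35.9 RPKM in mTEChi and 59.3 RPKM in mTEClo (-0.97).

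Calcium handling genes outside the set had 2 of 9 higher and 1 lower (14 listed, median 0.57). Sln, sarcolipin, an inhibitor of the calcium pump, had 4.82 RPKM in mTEChi and 18.4 RPKM in mTEClo (-2.00). Pln, phospholamban, the corresponding cardiac inhibitor, had 1.76 RPKM in mTEChi and 0.244 RPKM in mTEClo (1.09). Srl, sarcalumenin, was higher by 1.18, and Atp2a2, the pump of heart and many other cells, had a change of 0.69. Muscle energy genes had 4 of 9 higher and 0 lower (10 listed, median 0.55), among them Eno3, muscle enolase (1.24), Ldhb, a lactate dehydrogenase subunit of heart and many other tissues (1.29), and Cox7a1. Both Cox7a1 and Ampd1, which is also among the higher genes, were listed at 0 in mTEClo, and among the 7 genes above 0 there 2 were higher. Pfkm, the muscle phosphofructokinase, had 0.55.

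Myogenic factors and endplate genes had 2 of 12 higher and 2 lower (17 listed, median -0.23). Both higher genes, Pax7 and Chrne, were listed at 0 in mTEClo and so passed by construction, and among the 10 genes above 0 there 0 were higher. Myog, myogenin, which drives terminal muscle differentiation, had 9.19 RPKM in mTEChi and 30.3 RPKM in mTEClo (-1.89). Musk, the kinase of the neuromuscular endplate, had 0.319 RPKM in mTEChi and 1.81 RPKM in mTEClo (-1.27). For the other myogenic factors, Myod1 was listed at 0.319 RPKM in mTEChi and at 0 in mTEClo, Myf6 had 0.719 RPKM in mTEChi and 0.268 RPKM in mTEClo, and Myf5 was listed at 0 in both. Chrnb1, a subunit of the muscle acetylcholine receptor, had a change of -0.72 and Mef2a, a partner of the myogenic factors, -0.62.

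Protein maintenance and fusion genes had 3 of 10 higher and 1 lower (14 listed, median 0.14). Of the higher genes, Klhl40 and Sgca were listed at 0 in mTEClo, and among the 8 genes above 0 there 1 was higher. Smyd1, a methyltransferase needed for sarcomere assembly, had 2.93 RPKM in mTEChi and 0.216 RPKM in mTEClo (1.64), and Unc45b, the myosin chaperone, 0.505 and 1.82 RPKM (-1.09). Mymk, the membrane protein of myoblast fusion, had 0.67 and Trim63, a ubiquitin ligase of muscle atrophy, -0.53. Of 8 cardiac regulators and peptides, 5 met the filter, with 3 higher and 0 lower (median 1.20), or 1 higher of the 3 above 0 in mTEClo. Nppa and Nppb, the natriuretic peptides of atrium and ventricle, were listed at 13.8 and 6.0 RPKM in mTEChi and at 0 in mTEClo. Gata4, a transcription factor of heart and endoderm, had 5.63 RPKM in mTEChi and 1.57 RPKM in mTEClo (1.20), and Gja5, a connexin of atrium and endothelium, -0.58.

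**Figure D5:**
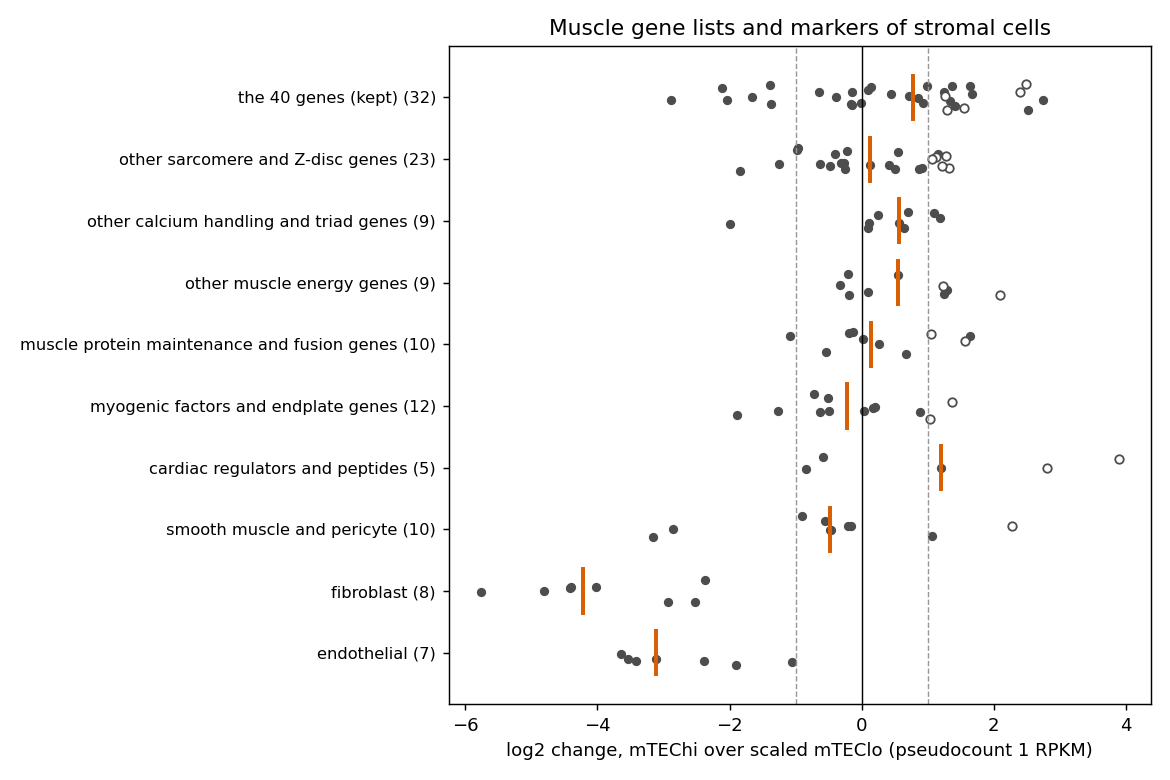
Log2 change of mTEChi over scaled mTEClo (pseudocount 1 RPKM) for the genes of each list that met the filter, with their number in parentheses. Each point is a gene, open points are listed at 0 in mTEClo, and orange bars are medians: 0.78 for the members, 1.20 for cardiac regulators and peptides, -0.23 for myogenic factors and endplate genes and -4.22 for fibroblast markers.

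The calls depended on the size of the values. Of the 19 members past 2-fold, 7 stayed past it under each alternative scaling, pseudocount and choice of transcript line: Actn3, Tnni1 and Myl7 as higher, and Myl1, Mybpc2, Acta1 and Des as lower. The other 12 lost the call with a pseudocount of 5 RPKM. No member past 2-fold changed sign in any of them.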

How the data were processed

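Values are RPKM per RefSeq transcript, as the authors deposited them. Build mm9, bedtools, CASAVA and Bowtie 1.0.0 are listed in the submitters' processing notes, and the role of each and the treatment of reads shared by isoforms or paralogs are not given in the sources used here. Per the labels, the library kit did not keep strand.

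Of 30794 transcript lines, 30216 were named through the RefSeq gene table (GRCm38.p6) and 180 through GENCODE M21. The 398 unnamed lines (1.29% of RPKM in mTEChi, 1.72% in mTEClo) were left out. A gene took its line with the highest mean RPKM. Several lines existed for 9 members. mTEClo was multiplied by 1.21, from 5167 genes above 0 in both libraries with a mean of 10 RPKM or more. The pseudocount was 1 RPKM and the filter a mean of 0.5 RPKM.

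Reads were recovered from the steps of RPKM times GENCODE transcript length, which may differ from the authors' length. Of transcripts with 1 to 10 reads, 75.4% of 1462 in mTEChi and 66.3% of 992 in mTEClo lay within 0.1 of a whole read. Intervals are exact binomial (Clopper-Pearson), with mTEChi reads entered as pairs, and cover counting error only. Exon overlap used GENCODE M21, on which 20 members share exon bases with another gene and 6 with a protein-coding one.

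The members and lists were chosen with earlier results of these data known, and the printed promoters after the values were seen. Every member that met the filter is given, and from each other muscle list up to 4 genes with the largest change at a mean of 1 RPKM or more, together with Myod1, Myf5, Myog and Myf6. Genes named beyond these, for a 0 in mTEClo or for an overlap, were chosen after their values were seen. Thymocyte, dendritic cell and macrophage, erythroid and mature mTEC markers had 1, 3, 1 and 6 genes higher and 0, 0, 1 and 0 lower, and 2 of their genes were not matched. Thymic epithelial markers had 1 higher and 2 lower of 7. 2 alternatives were added after the data were seen. The procedure was tested on simulated reads, with changes planted only in genes at 5 RPKM or more in mTEChi. That test does not cover changes in members below this level or values of 0 that are failed estimates. Scripts ran in Python 3.11.15 with pandas 2.3.3, numpy 2.4.6, matplotlib 3.10.9 and scipy 1.17.1.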

Additional observations from a re-analysis of the deposited data

How the results depend on the processing

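The main values were 13 higher members, 6 lower members and a median log2 change of 0.78. A pseudocount of 5 RPKM gave 3 higher and a median of 0.31, and 0.1 RPKM a median of 1.14. A filter at a mean of 5 RPKM, which 8 members met, gave 4 higher, 3 lower and a median of 0.43, and without a filter the median was 0.33. Without scaling the median was 0.90. Leaving out members at 0 in mTEClo, added after the data were seen, gave 8 higher and a median of 0.14, and ratios without pseudocount over members above 0 in both a median of 0.56. The median over all genes that met the filter was 0.03, or 0.25 without scaling and 0.15 with the same RPKM sum. The other settings stayed within 1.5 times of the counts and within 0.10 of the median. The call was the same for 17 of 32 members under each change of pseudocount, scaling or transcript line that gave a value. No paired analysis was possible because each group has 1 library, and for the same reason no replicate could be left out. Depth limits the mTEClo values: 13 members had 100 or more reads there, and 2 members above 0 had 10 or fewer.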

Other observations

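Values of 0 in mTEClo were compared with depth. Among members with 50 to 100 reads expected in mTEClo at the mTEChi level, 3 of 14 were listed at 0, beside 14.2% of all genes with as many. With 100 to 200 expected reads it was 1 of 4 members (Mybpc3), beside 6.0% of all genes, and with 200 or more 0 of 11 members, beside 0.648%. With 20 to 50 expected reads it was 1 of 7, beside 30.1%. These shares were not tested.

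Even numbers of reads were more frequent than odd ones in mTEChi, with 453 transcripts at 2, 4 or 6 reads and 363 at 1, 3 or 5, whereas mTEClo had 189 and 179.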
